A study of Homo sapiens with 6 samples.

Results

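The miRNAs miR-26a, miR-26b and miR-101 were examined in 6 small RNA libraries of A549 cells. With earlier results of these data known, the members were taken by name, as every row called miR-26a, miR-26b or miR-101 on any arm. Of the 787 mature miRNAs listed in the deposited table, 6 met that rule. They are the abundant arms hsa-miR-26a-5p, hsa-miR-26b-5p and hsa-miR-101-3p and the scarce arms hsa-miR-26a-1-3p, hsa-miR-26a-2-3p and hsa-miR-26b-3p. Every library came from A549, a long-established epithelial cell line grown from a human lung adenocarcinoma, which is known to lack functional SMARCA4. In the empty vector group (n = 3) the cells had received the plasmid pcDNA4, and in the SMARCA4 group (n = 3) pcDNA4 with SMARCA4, meant to restore its expression. SMARCA4 RNA and protein were not analysed here, so the restoration itself was not checked. RNA was taken 48 h after lipid transfection in both groups. The labels do not mention selection of transfected cells, so each library may mix cells that took up plasmid with cells that did not, and fewer molecules per cell and fewer cells carrying a miRNA cannot be told apart. The design text calls the 3 replicates of each group biological and independent. Where 3 values are given for a group, they are replicates 1, 2 and 3 in that order.

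A miRNA is cut as one of the arms (5p or 3p) of a hairpin RNA. The arm kept in Argonaute is the guide, the other is the passenger and is mostly degraded. The guide pairs with messenger RNAs chiefly through its seed, bases 2 to 8, and lowers their translation and stability. EZH2 is the methyltransferase of Polycomb repressive complex 2 (PRC2), which marks silenced chromatin by methylating histone H3, and SWI/SNF, whose ATPase subunit is SMARCA4 (BRG1) or SMARCA2 (BRM), counteracts Polycomb at many genes. miR-26a, miR-26b and miR-101 are known to target EZH2 and are often described as restraining tumour growth, in lung cancer among others. EZH2 RNA and protein were not analysed here.

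The guide arms are shown with their seeds in capitals, because the seed sets which messages each can pair with (RefSeq, GRCh38.p14, 5′ to 3′).
miR-26a-5p: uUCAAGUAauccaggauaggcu
miR-26b-5p: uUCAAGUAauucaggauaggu
miR-101-3p: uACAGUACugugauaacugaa
The miR-26 guides have the same seed and miR-101-3p has another. Counted from 1 at the 5′ end, miR-26a-5p and miR-26b-5p differ by C11U and C21U, with miR-26a-5p 1 base longer, so a read without its last bases is told apart by a single base. The sources used here do not say how such reads were divided between the pair, and the split is uncertain to that extent. In RefSeq, miR-1297 and miR-4465 also carry the miR-26 seed, and miR-144-3p shares bases 2 to 7 with miR-101-3p. None of these 3 is listed in the deposited table. Among the 689 listed miRNAs with a RefSeq sequence, only the 2 miR-26 guides had that seed, and the remaining names were not searched.

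EZH2 carries matches to each seed, shown here because they are the sequences that link these miRNAs to Polycomb. In the GENCODE 29 transcript of EZH2 with the longest coding sequence, the 3′ UTR is 261 bases long. It was searched on the transcript strand for TACTTGA (the reverse complement of the miR-26 seed) and GTACTGT (that of the miR-101 seed), and matches are in capitals below. The miR-26 match lies at UTR bases 250 to 256 and the miR-101 matches at 59 to 65 and 114 to 120.
miR-26 match, chr7:148807389-148807410, minus strand, GRCh38: ctttgaataaagaaTACTTGAa
miR-101 match, chr7:148807580-148807600, minus strand, GRCh38: tcaggaacctcgaGTACTGTg
miR-101 match, chr7:148807525-148807545, minus strand, GRCh38: ctgaatttgcaaaGTACTGTa
Over the first 261 bases of the 3′ UTRs of 14880 genes with a UTR at least that long, 1.88% held TACTTGA, 1.40% held GTACTGT and 7 genes held both. Among other genes of the complexes, EED, a PRC2 subunit, had 1 miR-101 match in a UTR of 288 bases, and SUZ12 and EZH1 had none for either seed. SMARCA4 itself had 1 miR-101 match in a UTR of 466 bases and ARID1A, a SWI/SNF subunit, had 2 in 1354 bases, while SMARCA2 and ARID1B had none. Such a match describes letters only and is no measured site. Whether the transfected plasmid carried the UTR of SMARCA4 is not stated in the labels.

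The hairpins lie at 5 places in GRCh38 (RefSeq positions, GENCODE 29 genes). MIR26A1 is on chromosome 3 (37969404 to 37969480, plus strand), in an intron of CTDSPL. MIR26A2 is on chromosome 12 (57824609 to 57824692, minus strand), in an intron of CTDSP2, and MIR26B on chromosome 2 (218402646 to 218402722, plus strand), in an intron of CTDSP1. These hosts encode related small phosphatases that act on RNA polymerase II, and each is transcribed on the strand of its hairpin. MIR101-2 is on chromosome 9 (4850297 to 4850375, plus strand), in an intron of RCL1 on the same strand and opposite the annotated antisense gene AL158147.1. MIR101-1 lies on chromosome 1 (65058434 to 65058508, minus strand), where it overlapped no other annotated gene. miR-26a-5p can come from MIR26A1 or MIR26A2 and miR-101-3p from MIR101-1 or MIR101-2, so their values sum over the pair of loci.

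The recovered read totals were 701885 to 1079944 in 5 libraries and 7274329 in SMARCA4 replicate 2, which stands apart by depth. Its normalized counts also summed to more, 3073322 against 1661870 to 1835229 in the other 5 libraries. The fold changes, shares and ratios of the members were also computed without SMARCA4 replicate 2. Over the 637 miRNAs tested, 9 changed with SMARCA4, which is 1.41% (6 rose, 0.942%, and 3 fell, 0.471%). Of 7 epithelial marker miRNAs 6 were listed, at summed levels of 356 to 677 normalized counts in empty vector cells and 425 to 623 in SMARCA4 cells, while miR-205-5p was not listed. That sum covers opposite directions: miR-141-3p and miR-203a-3p rose (log2 fold changes 2.55 and 2.83, limma adjusted p = 0.0124 for each), whereas miR-200b-3p, the largest part of it with empty vector, had a log2 fold change of −1.14 (limma adjusted p = 0.109). Of 7 blood cell markers only 3 were listed, led by miR-486-5p, with sums of 5621 to 7213 against 7962 to 14458, and the red cell marker miR-451a was not listed. The muscle markers miR-1-3p and miR-133a-3p were at 0 in all 6 libraries, and the liver marker miR-122-5p was not listed. Some markers of other cell types were detected. The endothelial miR-126-3p and miR-126-5p summed to 746 to 1490 with empty vector and 1200 to 1401 with SMARCA4. In the same order, the neuron marker miR-9-5p was at 140 to 146 and 146 to 427. The fibroblast markers miR-143-3p and miR-145-5p summed to 22.6 to 51.3 and 31.4 to 122. The part of other cells in the results below was not tested.

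No member changed with SMARCA4 (limma, adjusted p under 0.05 over all tested miRNAs; 0 of 6 members, against 1.41% of all tested miRNAs). At an unadjusted p under 0.05 the count was 1 of 6, miR-26b-3p, against 22.6% of all tested miRNAs. edgeR and DESeq2 also called 0, although DESeq2 called 11.2% of the miRNAs to which it gave an adjusted p. Normalized read counts are used throughout, which are reads multiplied by 1 factor per library.

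miR-26a-5p was the most abundant member, ranking 23 among all listed miRNAs by mean and between 19 and 28 in single libraries. It was at 16212, 9741 and 15705 with empty vector, and at 15286, 13139 and 13888 with SMARCA4. The groups overlapped entirely, with the SMARCA4 libraries inside the range of the empty vector libraries and empty vector replicate 2 the low one. The means were 13886 ± 3599 and 14104 ± 1090 (SD, n = 3 each). The log2 fold change was 0.06 (SE 0.28, limma adjusted p = 0.943). Its 95% interval of −0.58 to 0.70 is 0.667 to 1.62 times the empty vector level.

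miR-26b-5p, the guide from the CTDSP1 locus, ranked 52. It was at 3153, 2495 and 2976 with empty vector, and at 2968, 4066 and 2977 with SMARCA4. SMARCA4 replicate 2 was the high library and empty vector replicate 2 the low one, and the groups overlapped. With means of 2875 ± 340 and 3337 ± 631 (SD, n = 3 each), the log2 fold change was 0.21 (SE 0.26, limma adjusted p = 0.672), with a 95% interval of 0.767 to 1.73 times. Without SMARCA4 replicate 2 it was 0.06.

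miR-101-3p ranked 59. It was at 2059, 3005 and 1972 with empty vector, and at 1564, 2311 and 1603 with SMARCA4. Replicate 2 was the highest of each group, and SMARCA4 replicate 2 lay above 2 of the empty vector libraries. The means were 2345 ± 573 and 1826 ± 421 (SD, n = 3 each), the log2 fold change −0.36 with SE 0.29 (limma adjusted p = 0.483), and its 95% interval was 0.494 to 1.23 times. Leaving out empty vector replicate 2 gave −0.17, leaving out SMARCA4 replicate 2 gave −0.54, and neither passed (limma adjusted p = 0.762 and 0.179). The passenger arm miR-101-5p and the variant miR-101-2-5p are not rows of the table, so no arm comparison was made for miR-101.

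**Figure D1:**
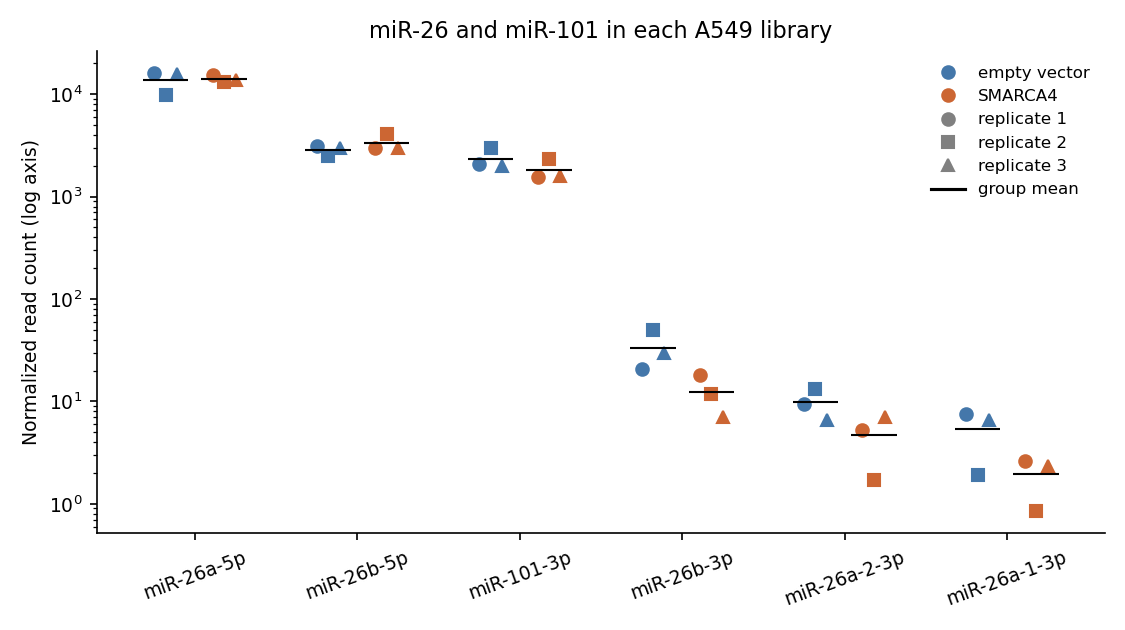
Normalized read count (log axis) of the 6 members, with a point per library, colour for the group, marker for the replicate and a line at the mean of each group (n = 3). The guide arms on the left lie between 1564 and 16212 and their groups overlap, whereas the 3p arms of miR-26 on the right lie under 50 and have lower means in SMARCA4 cells.

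The spread of the guides between replicates was small for this table. Their residual SD of log2 values was 0.30 for miR-26a-5p, 0.22 for miR-26b-5p and 0.32 for miR-101-3p, against a median of 0.65 over all tested miRNAs and 0.42 over the 75 with a mean of at least 1000. The median log2 fold change was −0.05 over all tested miRNAs and 0.28 over those 75. The guides rest on 598 to 31098 reads per library.

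As a share of all miRNA reads, the 6 members together made up 1.29%, 0.862% and 1.17% with empty vector, and 1.08%, 0.635% and 1.02% with SMARCA4. The lowest share was that of SMARCA4 replicate 2, the library with the most reads and the highest normalized total. The groups overlapped (exact two-sided permutation p = 0.4, Benjamini-Hochberg adjusted 0.667 over the 8 single values compared here, where 3 against 3 libraries cannot go under 0.1). The difference of means was −0.196 percentage points with all libraries and −0.058 without SMARCA4 replicate 2. The miR-26 guides together, read as a dose of their shared seed, were at 1.17%, 0.689% and 1.06% against 0.995%, 0.560% and 0.930%, which also overlapped (exact permutation p = 0.5).

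The share of miR-101-3p did not overlap between groups. It was 0.124%, 0.169% and 0.112% with empty vector, and 0.0852%, 0.0752% and 0.0884% with SMARCA4 (exact permutation p = 0.1, the smallest possible, and 0.267 adjusted). Lower and not overlapping shares were found for 21.4% of all tested miRNAs. A share falls where other miRNAs take more of the library, and over the tested miRNAs the median log2 ratio of mean shares was −0.30. Without SMARCA4 replicate 2 these backgrounds were 24.5% and −0.11. On the authors' scale, as given above, the same miRNA overlapped between groups.

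Within the miR-26 family, the log2 ratio of miR-26b-5p to miR-26a-5p was −2.36, −1.96 and −2.40 with empty vector, and −2.36, −1.69 and −2.22 with SMARCA4, so that miR-26a-5p had 3.23 to 5.28 times the value of miR-26b-5p. That excess was lowest in replicate 2 of each group. The log2 ratio was on average 0.15 higher with SMARCA4 (exact permutation p = 0.6), and the difference was −0.051 without SMARCA4 replicate 2. The miR-26 guides together had 9.40, 4.07 and 9.47 times the value of miR-101-3p with empty vector and 11.7, 7.44 and 10.5 times with SMARCA4. In empty vector replicate 2 the miR-26 guides were low and miR-101-3p was high. The log2 ratio differed by 0.44 (exact permutation p = 0.5), and by 0.04 without that library.

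The 3p arms of miR-26 are the passengers. The hairpins are shown with the 5p and then the 3p arm in capitals, since the arms of a hairpin come from the same precursor and differed in their values.
MIR26A1: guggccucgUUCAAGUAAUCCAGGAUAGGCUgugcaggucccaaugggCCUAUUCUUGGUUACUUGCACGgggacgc
MIR26A2: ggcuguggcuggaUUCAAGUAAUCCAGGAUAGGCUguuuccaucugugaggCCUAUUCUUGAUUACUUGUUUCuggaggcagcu
MIR26B: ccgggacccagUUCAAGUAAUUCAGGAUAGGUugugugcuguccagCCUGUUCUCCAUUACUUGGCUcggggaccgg
miR-26a-5p is the same in MIR26A1 and MIR26A2, but their 3p arms differ by 5 substitutions (G11A, C19U, A20U, C21U and G22C, from miR-26a-1-3p to miR-26a-2-3p), so of the miR-26a arms only the scarce 3p ones tell the loci apart.

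miR-26b-3p was the only member whose groups did not overlap, a pattern shown by 31.1% of all tested miRNAs (lower with SMARCA4, as here, by 15.2%). It was at 20.7, 49.4 and 29.4 with empty vector, and at 18.3, 11.8 and 7.08 with SMARCA4. The gap between the groups, from 18.3 to 20.7, was narrow. The means were 33.2 ± 14.7 and 12.4 ± 5.63 (SD, n = 3 each), the log2 fold change −1.35 (SE 0.53, 95% interval −2.54 to −0.16, limma adjusted p = 0.174). These values rest on 55 reads in the empty vector group and 38 in the SMARCA4 group, of which 28 came from the deep SMARCA4 replicate 2. With reads scaled by the authors' factor of each library, and not by read totals, miR-26b-3p was 2.75 times as frequent with empty vector (exact 95% interval 1.79 to 4.28, counting error only). Without SMARCA4 replicate 2 it was 2.66 times as frequent (1.34 to 5.85).

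The 3p arms of miR-26a were at the edge of detection. miR-26a-2-3p was at 9.43, 13.3 and 6.54 with empty vector, and at 5.23, 1.69 and 7.08 with SMARCA4, where SMARCA4 replicate 3 lay above empty vector replicate 3 (log2 fold change −1.02, SE 0.61, limma adjusted p = 0.344). It had 16 reads against 9, a ratio of 3.38 when scaled by the authors' factors (exact 95% interval 1.41 to 8.68), which was 1.55 (0.541 to 5.40) without SMARCA4 replicate 2. miR-26a-1-3p was at 7.54, 1.90 and 6.54 with empty vector, and at 2.61, 0.845 and 2.36 with SMARCA4, with empty vector replicate 2 inside the SMARCA4 range (log2 fold change −1.02, SE 0.67, limma adjusted p = 0.391). It had 9 reads against 4, a ratio of 4.28 when scaled likewise (exact 95% interval 1.19 to 19.0), and 2.17 (0.450 to 20.7) without SMARCA4 replicate 2. In no SMARCA4 library did miR-26a-1-3p exceed 2 reads, fewer than the 3 that a count of 0 would allow. The log2 ratio of miR-26a-1-3p to miR-26a-2-3p was −0.86 ± 1.25 in empty vector cells and −0.87 ± 0.37 in SMARCA4 cells (SD, n = 3 each, exact permutation p = 1.0), on 1 to 7 reads per library and arm.

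Set against their own passengers, the miR-26 guides were more dominant in every SMARCA4 library than in any empty vector library. Of 155 hairpins, miR-26b among them and miR-26a not, 25.2% showed this pattern for the more against the less abundant arm. On the log2 scale with 1 added to each value, the ratio of miR-26b-5p to miR-26b-3p was 7.18, 5.63 and 6.61 with empty vector and 7.26, 8.31 and 8.53 with SMARCA4. That of miR-26a-5p to the sum of its 3p arms was 9.82, 9.23 and 10.12 with empty vector and 10.76, 11.86 and 10.38 with SMARCA4. Without the added 1, miR-26b-5p had 50.5 to 152 times the value of its passenger with empty vector and 162 to 420 times with SMARCA4. Replicates 1 of miR-26b and replicates 3 of miR-26a came closest to overlapping. The group means differed by 1.56 for miR-26b (6.47 ± 0.79 and 8.03 ± 0.67) and by 1.27 for miR-26a (9.72 ± 0.45 and 11.00 ± 0.77; SD, n = 3 each; exact two-sided permutation p = 0.1 for each, the smallest possible, 0.267 adjusted). Without SMARCA4 replicate 2, the differences were 1.42 and 0.84. With 5 added to each value in place of 1, they were 1.32 for miR-26b and 0.90 for miR-26a. The miR-26a ratio rests on 1 to 4 reads of miR-26a-1-3p and 2 to 7 reads of miR-26a-2-3p per library.

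The same direction was common in the table. Among 155 hairpins with a 5p and a 3p arm tested under 1 name, miR-26b among them and miR-26a not, the ratio of the more to the less abundant arm was higher with SMARCA4 in 64.5%, and the median difference over all 155 was 0.64 on the log2 scale. It was higher without overlap of the groups in 25.2%, and the difference was at least as large as that of miR-26b in 21.3%, miR-26b included. The less abundant arms had a median log2 fold change of −0.42 and the more abundant arms 0.06. Among all 375 tested miRNAs with a mean under 50, the range of the miR-26 passengers, the median was −0.17, and 15.7% were lower without overlap. The miR-26b value of 1.56 is on the side of most hairpins. Without SMARCA4 replicate 2, a setting added after seeing the data, the ratio was higher in 63.2% of the 155 hairpins with a median difference of 0.50, it was higher without overlap in 29.7%, and 23.2% differed at least as much as miR-26b, at 1.42.

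**Figure D2:**
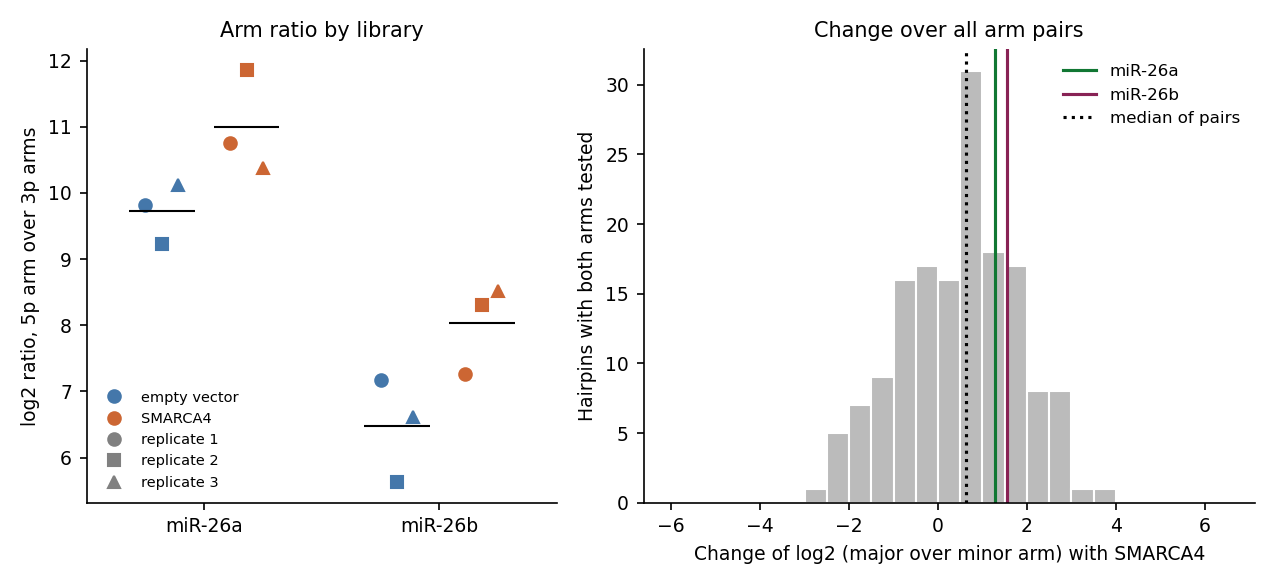
Left, log2 ratio of the 5p arm to the 3p arm (for miR-26a the sum of its 3p arms) in each library, with colour for the group, marker for the replicate and a line at each mean. Right, number of hairpins by the change of their log2 arm ratio with SMARCA4 over 155 pairs, where miR-26a at 1.27 and miR-26b at 1.56 lie above the median of 0.64.

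Other miRNAs reported to target EZH2 had values in both directions. Of 12 listed by name, 9 were rows of the table, miR-214-3p was at 0 throughout, and 8 were tested. None passed (0 of 8, against 1.41% of all tested miRNAs), 6 had a positive and 2 a negative log2 fold change, and their median was 0.74, against −0.05 for all tested. In 6 of the 8 the groups did not overlap, against 31.1% of all tested miRNAs (higher 15.9%, lower 15.2%). Of these 6, most were higher with SMARCA4 and the rest lower. The list was drawn up with earlier results of these data known and holds several let-7 members. The count can therefore not be read as a result about the list. The most abundant were let-7a-5p, a growth-restraining miRNA, at 62643 ± 8767 against 145734 ± 149564 (log2 fold change 0.74, limma adjusted p = 0.481), and miR-30d-5p, at 12670 ± 1226 against 8797 ± 870 (−0.53, limma adjusted p = 0.230; SD, n = 3 each). SMARCA4 replicate 2 held let-7a-5p at 318431 against 58274 and 60498 in the other SMARCA4 libraries, and without it the list's median was 0.06, with 4 of the 8 positive. In that setting miR-32-5p and let-7b-5p, named after their values were seen, rose (log2 fold changes 2.23 and 0.72, limma adjusted p = 0.0326 and 0.0495), where 8.03% of all miRNAs tested passed. The log2 fold changes of miR-26a-5p, miR-26b-5p and miR-101-3p were 0.06, 0.21 and −0.36 with all libraries, and 0.11, 0.06 and −0.54 in that setting.

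Of 9 miRNAs reported to target BMI1 or RING1B, core proteins of Polycomb repressive complex 1, all were tested, and 1 rose and none fell (limma, against 0.942% and 0.471% of all tested miRNAs). Of the 9, 7 had a positive log2 fold change, against 308 of all 637 tested, and the median was 0.54, against −0.05 for all tested. Without SMARCA4 replicate 2 the list's median was 0.37, with 8 of the 9 positive. miR-203a-3p rose, at 3.77, 5.71 and 4.91 in empty vector cells and 36.6, 40.1 and 42.5 in SMARCA4 cells (log2 fold change 2.83, limma adjusted p = 0.0124), on 2 or 3 reads in each empty vector library. Leaving out any of replicates 1 and 3 of either group brought that count to 0, and leaving out either replicate 2 brought it to 2, with miR-181a-5p added. The most abundant members, miR-181a-5p and miR-16-5p, had log2 fold changes of 1.69 and 0.16 (limma adjusted p = 0.0656 and 0.783). Of the miRNAs reported to target SMARCA2, miR-199a-5p had 1 read in all and miR-199a-3p was not listed. Both lists were drawn up with earlier results of these data known, so their counts cannot be read as results about the lists.

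**Figure D3:**
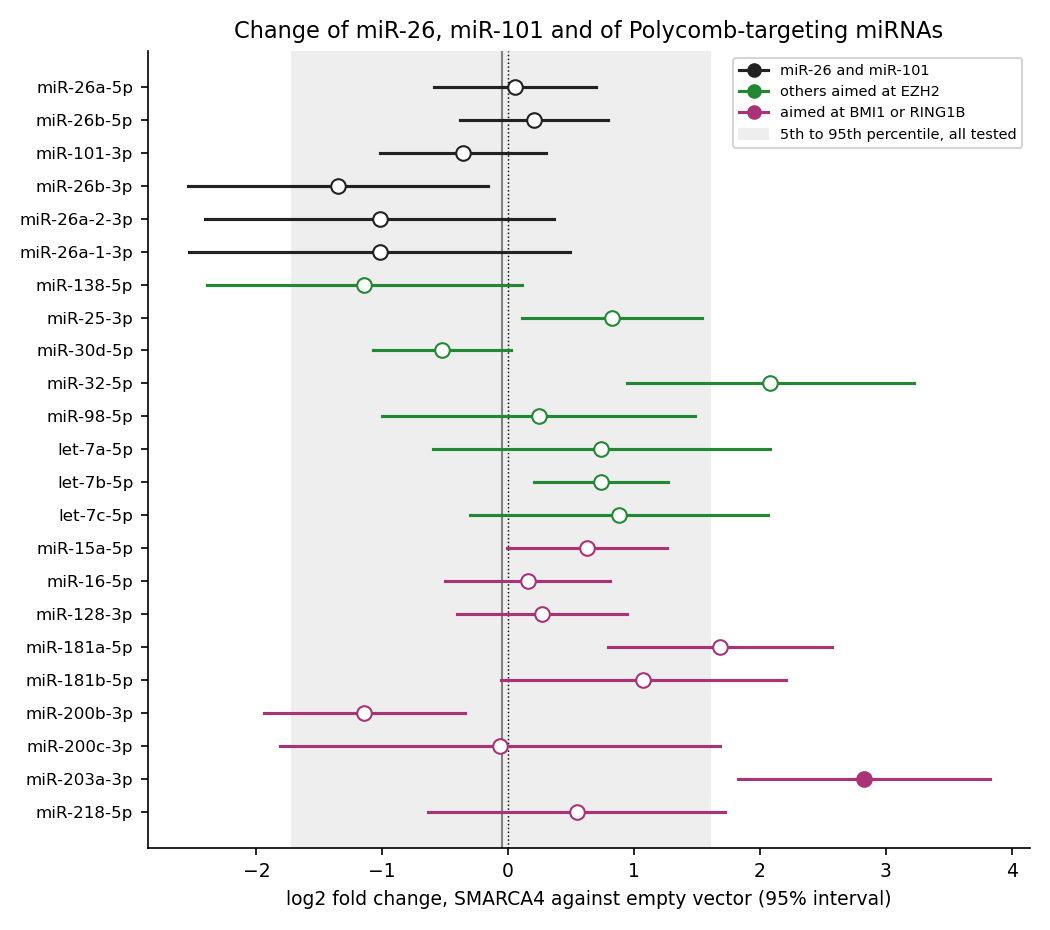
Log2 fold change of SMARCA4 against empty vector cells with its 95% interval (limma, n = 3 each) for the 6 members, the 8 other miRNAs aimed at EZH2 and the 9 aimed at BMI1 or RING1B. Filled points passed the test and open points did not, the grey line is the median of all 637 tested miRNAs and the band their 5th to 95th percentile. The guides lie at 0.06, 0.21 and −0.36 with intervals that include 0, that of miR-101-3p reaching from −1.02 to 0.30. The filled point is miR-203a-3p at 2.83.

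The miRNAs whose pattern over the 6 libraries was most like that of each guide were found among the 420 others with a mean of at least 10, by the root mean square difference of log2 values centred on each miRNA's mean. Nearest to miR-26a-5p were miR-16-5p (0.08), miR-128-3p (0.11) and miR-589-5p (0.15). Like miR-26a-5p, miR-16-5p was lowest in empty vector replicate 2, at 9604 against 13164 to 16204 elsewhere. Nearest to miR-26b-5p were miR-34a-5p (0.10), miR-3176 (0.11) and miR-421 (0.13), and nearest to miR-101-3p were miR-30a-5p (0.06), miR-769-5p (0.08) and miR-30e-3p (0.12). Between the guides the difference was 0.26 for miR-26a-5p and miR-26b-5p, 0.41 for miR-26b-5p and miR-101-3p and 0.53 for miR-26a-5p and miR-101-3p. Among the 420 candidates ordered from miR-26a-5p, miR-26b-5p came at place 19 and miR-101-3p at place 150.

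**Figure D4:**
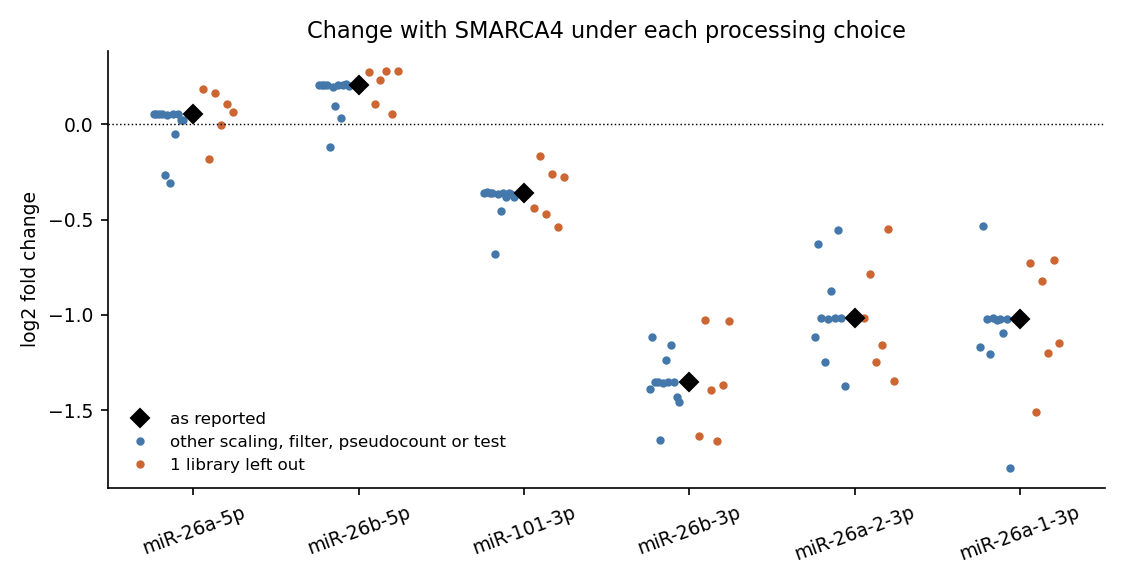
Log2 fold change of each member as reported (black diamonds), under other scalings, filters, pseudocounts or tests (blue) and with 1 library left out (orange). miR-26a-5p ranged from −0.31 to 0.19 around 0, miR-101-3p stayed between −0.68 and −0.17, and the 3p arms of miR-26 stayed under 0.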

How the data were processed

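Per the labels' protocols, a TruSeq kit for small RNA was used. bcl2fastq 2.18.0.12 and GRCh38 are named in the submitters' processing notes. The aligner, counter and miRNA annotation were not given in the sources used here. The authors deposited a normalized signal, labelled TMM, for each mature miRNA. Dividing each library by its smallest step gave whole reads for 100% of values (tolerance 1e-06). A single read was worth 0.422 to 2.61 and the limit of 3 reads that a count of 0 allows 1.27 to 7.84. Intervals on reads cover counting error only.

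limma 3.58.1 (R 4.3.3) was fitted to log2(value + 1), with a mean-variance trend and no term but group, for 637 miRNAs whose mean reached 1. Adjustment was by Benjamini and Hochberg over all of them, with a threshold of 0.05. This scale understates changes of scarce miRNAs. Single values had exact two-sided permutation tests (scipy 1.17.1). Alternatives were edgeR 4.0.16 and DESeq2 1.42.0 on recovered reads, other scalings, filters and pseudocounts, and each library left out. Fits were tested on simulated data. By rule, the text names all members, miRNAs sharing a guide's seed, from each list the 2 highest in level and those that passed, and the 3 nearest patterns. The members and lists were chosen with earlier results of these data known. Of 787 names, 689 matched RefSeq, all 6 members among them.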

Additional observations from a re-analysis of the deposited data

How the results depend on the processing

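The count of changed members was 0 under all 18 alternatives, and the lowest adjusted p of any member was 0.127 (miR-26b-3p with equal library totals). miR-101-3p and the 3 miR-26 3p arms kept a negative log2 fold change wherever they were tested. A mean of at least 10 left miR-26a-1-3p and miR-26a-2-3p untested, and DESeq2 gave them no adjusted p. The arm ratio of miR-101 was not run, since its 5p arm is not a row. The sign of miR-26a-5p was not stable: its log2 fold change was −0.27 after equalizing library totals, −0.31 after quantile normalization and −0.051 with array weights, and it ranged from −0.18 to 0.19 when 1 library was left out. That of miR-26b-5p was −0.12 with equal totals. Equal totals moved the median of all tested miRNAs from −0.05 to −0.31, and both guides stayed above it. With quantile normalization the median was −0.04, and miR-26a-5p lay under it. With array weights the median was −0.051, the value of miR-26a-5p. The cause of the sign reversals was not tested. With 1 library left out, the log2 ratio of miR-26b-5p to miR-26a-5p differed by −0.051 to 0.29, and that of miR-26a-1-3p to miR-26a-2-3p by −0.72 to 0.43 (0.091 with a pseudocount of 5). The number of list members called, a check added after seeing the data, was 0 to 2 for the EZH2 list and 0 to 2 for the list of BMI1 and RING1B. Over all miRNAs, the calls numbered 9 as reported, 46 by DESeq2, 90 with array weights and 0 to 50 with 1 library left out.

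Replicate numbers were not used as pairs. Deviations of same-numbered libraries from their group means correlated at 0.01 to 0.09, under the threshold of 0.1. Though 5 of 6 libraries correlated best with their own number, these matches are not independent. Correlations this small do not show a pairing. With the replicate block, 0 members were called, 13 miRNAs passed in all, and the log2 fold changes stayed at 0.06, 0.21 and −0.36 for miR-26a-5p, miR-26b-5p and miR-101-3p (limma adjusted p = 0.907, 0.594 and 0.252). The paired exact sign-flip tests of the single values cannot go under 0.25.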
